A study of Mus musculus with 59 samples.

Results

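The 7 cortex libraries labelled heterozygous for Slc25a1 (genotype Mrpl40 +/+, Slc25a1 -/+) were compared with the 9 cortex libraries labelled wild type (Mrpl40 +/+, Slc25a1 +/+), 16 of the 59 libraries of the series. Members were chosen by the genotype and tissue in the labels alone. Each library is poly(A) RNA from the cortex of 1 male mouse, sequenced as a stranded library, and the measured value is a read count per gene. The series also holds cortex of mice heterozygous for Mrpl40 or for both genes, and hippocampus of all 4 genotypes, and it asks how a reduced dose of these mitochondrial genes, alone or together, acts in the brain. The sources used here give neither the age and strain background of the mice nor the kind of mutation in either gene.

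Slc25a1 encodes the mitochondrial citrate carrier, which moves citrate made by the citrate cycle from the mitochondrial matrix to the cytosol. There ATP citrate lyase (Acly) splits it into oxaloacetate and acetyl-CoA, the starting material of fatty acid and cholesterol synthesis and the donor for protein acetylation. Mrpl40 is a large-subunit protein gene of the mitochondrial ribosome, which makes the mitochondrially encoded subunits of the respiratory chain. Both genes lie in the mouse region that matches human 22q11.2, whose deletion on 1 chromosome raises the risk of schizophrenia and other neurodevelopmental disorders.

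Slc25a1 itself (ENSMUSG00000003528) was lower in the group labelled heterozygous, but 4 of the 16 libraries went against their label. In CPM (the read count scaled to the effective size of its library) the libraries labelled wild type ranged from 12.0 to 26.1 with a median of 23.7, and those labelled Slc25a1 het from 10.9 to 24.0 with a median of 12.5. Wild-type libraries 6 and 7, at 12.6 and 12.0 CPM, lay among most of the heterozygous libraries, and Slc25a1 het libraries 3 and 4, at 21.5 and 24.0 CPM, lay at the level of the other 7 wild-type libraries, which ranged from 23.0 to 26.1 CPM. The remaining 5 heterozygous libraries ranged from 10.9 to 13.0 CPM.

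The labelled groups therefore overlapped, with means of 21.6 ± 5.36 CPM (SD, n = 9) and 15.0 ± 5.38 CPM (SD, n = 7), a difference of -6.57 CPM with a two-sided exact permutation p of 0.0264 over 11440 assignments. Across all genes the log2 difference of -0.53 ± 0.20 (SE) had an edgeR adjusted p of 1.00. Hippocampus libraries of the same 4 mice sat on the same side, at 11.3 and 12.3 CPM in wild type 6 and 7 and at 24.5 and 21.5 CPM in Slc25a1 het 3 and 4. Genotypes are therefore given as labelled throughout, and values without these libraries, and without 2 libraries labelled heterozygous for both genes that also went against their label, are given where they matter. Mrpl40 did not separate the groups, at 17.7 ± 1.52 CPM (SD, n = 9) against 17.3 ± 1.53 CPM (SD, n = 7).

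**Figure D1:**
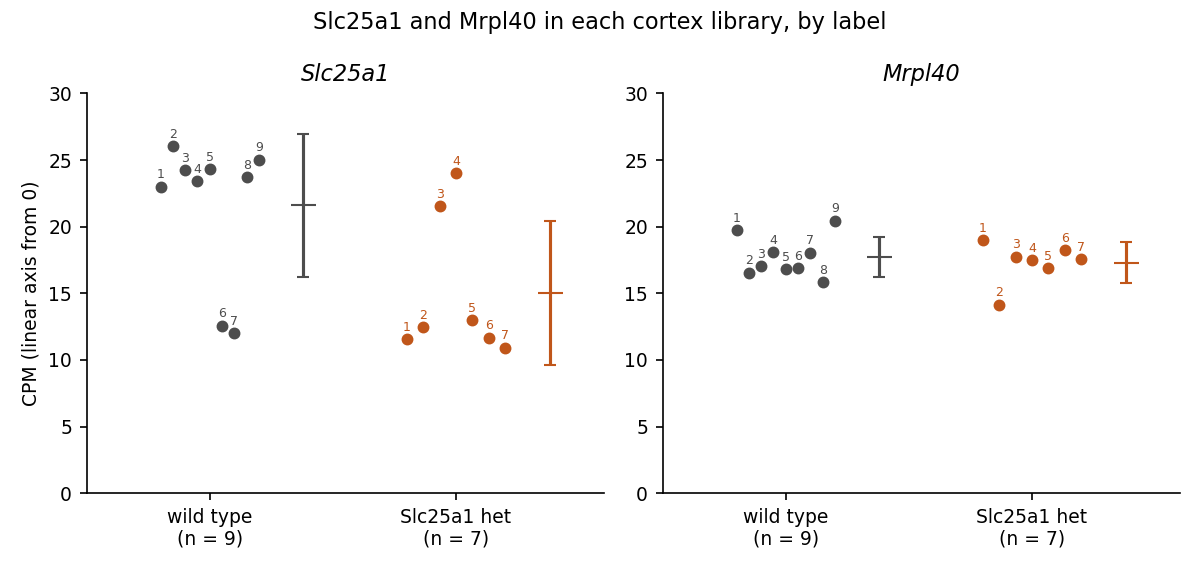
Slc25a1 and Mrpl40 in CPM (linear axis from 0) in each of the 9 cortex libraries labelled wild type and the 7 labelled Slc25a1 het, numbered by replicate; the bar beside each group is the mean ± SD. Wild-type libraries 6 and 7 lie low and Slc25a1 het libraries 3 and 4 lie high for Slc25a1, while Mrpl40 overlaps fully.

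Beyond the targeted gene, the cortex labelled Slc25a1 het was close to wild type. By edgeR's quasi-likelihood test 0 of 20394 genes passed an adjusted p of 0.05 (0% called), the smallest adjusted p was 0.961, and DESeq2 also called 0. At an unadjusted p under 0.05 stood 646 genes (3.17% of those tested), 395 lower (1.94%) and 251 higher (1.23%). Of all genes, 10256 (50.3%) lay below and 10138 (49.7%) above wild type, and the median log2 difference was -0.00043.

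The spread between libraries was small enough to bound most differences between the groups as labelled. Because some libraries in each group went against their Slc25a1 label, these intervals do not bound the effect of a lower Slc25a1 level. For 11816 genes (57.9%) the whole 95% interval of the difference lay within 1.2-fold of wild type in either direction, and for 84.5% it lay within 1.5-fold. Among the 6407 genes with a mean of at least 5 log2 CPM these shares were 97.1% and 99.6%. Depth was similar in both groups, with total counts from 24068959 to 31854093 in wild type and from 21443017 to 30953322 in Slc25a1 het. Without the libraries that went against their Slc25a1 label, 1 gene was called, Slc25a1, by whose level they were picked.

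The genes that make, carry and use citrate lay at the wild-type level. Of 29 measured genes of the citrate cycle and citrate use, 0 stood at an unadjusted p under 0.05 in either direction, 16 lay below and 13 above, and the median log2 difference was -0.0021. The 95% interval lay within 1.2-fold for 28 of the 29, the exception being Slc13a3, a carrier for dicarboxylates at the plasma membrane. Acly ranged from 156 to 170 CPM in wild type (mean 162 ± 5.98, SD, n = 9) and from 151 to 176 CPM in Slc25a1 het (mean 161 ± 9.13, SD, n = 7). The heterozygous libraries of Acly thus reached beyond the wild-type range on both sides, and the log2 difference was -0.0023 with a 95% interval from -0.073 to 0.068.

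Citrate synthase (Cs), which makes citrate from oxaloacetate and acetyl-CoA, had the narrowest bound of the genes looked up for their role here, at a log2 difference of 0.0016 and an interval from -0.048 to 0.052. Acss2, which makes acetyl-CoA in the cytosol from acetate and so does not need citrate, differed by 0.0053 (interval -0.077 to 0.087). The plasma membrane citrate transporter Slc13a5 measured 21.3 ± 1.41 CPM (SD, n = 9) against 21.6 ± 2.21 CPM (SD, n = 7). The smallest unadjusted p of this group belonged to Idh2, the mitochondrial NADP-dependent isocitrate dehydrogenase, which ranged from 32.9 to 38.4 CPM (median 34.9) in wild type and from 29.1 to 38.3 CPM (median 33.6) in Slc25a1 het, at -0.071 ± 0.050 (SE) on the log2 scale.

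**Figure D2:**
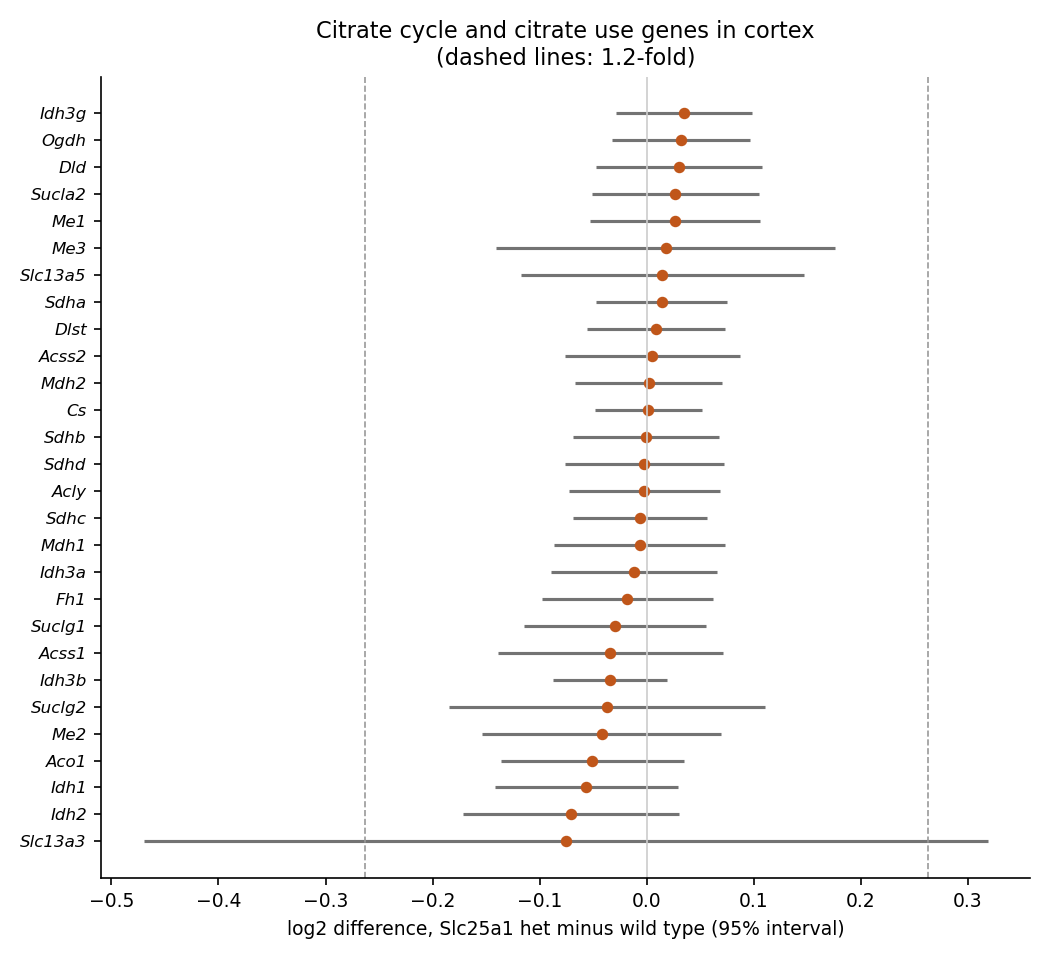
Log2 difference (Slc25a1 het minus wild type, 7 against 9 cortex libraries) of 28 of the 29 measured genes of the citrate cycle and citrate use, points, with 95% intervals as bars; dashed lines mark 1.2-fold. Every interval drawn includes 0, and all but that of Slc13a3 lie between the dashed lines.

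The other members of the SLC25 family of mitochondrial carriers did not stand apart either. Of 38 measured, 19 lay below and 19 above, with a median of -0.00028 and 0 at an unadjusted p under 0.05. Slc25a10 and Slc25a11, which carry dicarboxylates and oxoglutarate across the inner membrane, differed by -0.065 ± 0.067 (SE) and 0.0097 ± 0.041 on the log2 scale. Slc25a33, a carrier of pyrimidine nucleotides, had the smallest p, with wild-type libraries from 12.7 to 18.5 CPM (median 15.4) and Slc25a1 het libraries from 14.4 to 18.3 CPM (median 17.0), a difference of 0.13 ± 0.063. All 7 heterozygous libraries of Slc25a33 lay inside the wild-type range.

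Neighbours in the 22q11.2-matching region lay near wild type gene by gene, but the mean of the list, which includes Slc25a1, was slightly lower. Of 32 measured genes of the region, which include Slc25a1, 18 lay below with a median of -0.010, and Slc25a1 was the 1 gene at an unadjusted p under 0.05. Next came Dgcr6, at -0.088 ± 0.047 (SE), with libraries from 36.5 to 45.5 CPM in wild type and from 35.3 to 42.5 CPM in Slc25a1 het. Averaged over the list, Slc25a1 included, wild-type libraries ranged from 4.68 to 4.74 log2 CPM and Slc25a1 het libraries from 4.62 to 4.71. By this mean 6 of 7 heterozygous libraries lay below every wild-type library. The part of Slc25a1 in this mean was not tested. The summed level of the list did not lie lower by its median. It was 1954 CPM in wild type (1902 to 2022) and 1972 CPM in Slc25a1 het (1861 to 2030). Without the libraries against their Slc25a1 label, 20 of 32 genes lay below, with a median of -0.015. Then 2 stood lower at an unadjusted p under 0.05, against 4.31% of all genes in either direction.

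Of the pathways fed by cytosolic acetyl-CoA, fatty acid synthesis lay at the wild-type level and cholesterol synthesis slightly below. Among 22 fatty acid genes, 10 lay below and 12 above, with a median log2 difference of 0.0037. Acetyl-CoA carboxylase (Acaca), which makes malonyl-CoA, differed by -0.049 ± 0.035 (SE), and fatty acid synthase (Fasn) by -0.0079 ± 0.039, with means of 295 ± 13.6 CPM in wild type (SD, n = 9) and 294 ± 17.0 CPM in Slc25a1 het (SD, n = 7). Elovl2, which elongates polyunsaturated fatty acids, was the 1 member at an unadjusted p under 0.05: 6 of 7 Slc25a1 het libraries lay below every wild-type library and 1 above all of them. Elovl2 ranged from 15.3 to 17.0 CPM (median 15.7) in wild type and from 13.6 to 17.1 CPM (median 14.7) in Slc25a1 het, at -0.11 ± 0.052 on the log2 scale, and it lay on the other side in hippocampus of the same mice, at 0.13 ± 0.061.

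In cholesterol synthesis 23 of 25 measured genes lay below wild type (50.3% of all genes did), but the differences were small, with a median of -0.037 and 24 of the 25 intervals within 1.2-fold. At an unadjusted p under 0.05 stood 2 of them, both lower, against 1.94% of all genes, and 0 passed the adjusted threshold. Phosphomevalonate kinase (Pmvk), an enzyme of the mevalonate route, ranged from 31.7 to 34.6 CPM (median 33.7) in wild type and from 28.5 to 34.5 CPM (median 31.0) in Slc25a1 het, a log2 difference of -0.097 ± 0.036 (SE). In Pmvk, 4 of 7 heterozygous libraries lay below every wild-type library. Lanosterol synthase (Lss), which closes the sterol rings, differed by -0.11 ± 0.054. Hmgcs1, an early enzyme of the pathway that makes HMG-CoA, was nearer to wild type at -0.0093 ± 0.042.

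The distance of cholesterol synthesis genes from wild type grew when the libraries against their Slc25a1 label were left out. The median then was -0.075, 24 of 25 genes lay below, and 6 stood lower at an unadjusted p under 0.05, again with 0 past the adjusted threshold. Of all genes 4.31% stood at an unadjusted p under 0.05 in this setting, in either direction. Over all libraries as labelled, the summed level of the list ranged from 1603 to 1845 CPM in wild type and from 1543 to 1792 CPM in Slc25a1 het. The mean level of the list ranged from 5.52 to 5.72 and from 5.43 to 5.64 log2 CPM. By this mean 2 of 7 heterozygous libraries lay below every wild-type library.

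Genes of acetylation, the other use of acetyl-CoA, were tightly bounded between the groups as labelled. All 30 measured acetyltransferases and deacetylases of the list had 95% intervals within 1.2-fold, 14 lay below and 16 above, and the median log2 difference was 0.0058. The acetyltransferase Ep300, which acetylates histones, differed by -0.046 ± 0.034 (SE). The deacetylase Hdac2 had the smallest p of the list, at 0.069 ± 0.036. Glycolysis and pyruvate entry was as close to wild type, with 18 of 31 genes below, a median of -0.0048 and 0 at an unadjusted p under 0.05.

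Nuclear genes for the respiratory chain and the mitochondrial ribosome lay below wild type more often than above, by small amounts. Over 6 lists (complexes I, III and IV, ATP synthase, and both subunits of the mitochondrial ribosome) 121 of 150 genes lay below, the median log2 difference was -0.033, and 18 stood at an unadjusted p under 0.05 and lower, against 1.94% of all genes; 0 passed the adjusted threshold. Per list, the medians were -0.042 for complex I (30 of 36 below), -0.024 for complex III (6 of 9), -0.035 for complex IV (10 of 12), -0.026 for ATP synthase (10 of 15), -0.056 for the small ribosomal subunit (24 of 29) and -0.030 for the large subunit (41 of 49). Without the libraries against their Slc25a1 label all 6 medians were below 0 as well, between -0.031 for complex III (5 of 9 below) and -0.055 for ATP synthase (10 of 15). The mean per library overlapped between groups: complex I averaged between 5.38 and 5.47 log2 CPM in the wild-type libraries and between 5.31 and 5.46 in the Slc25a1 het libraries.

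Ndufa13, an accessory subunit of complex I, ranged from 72.4 to 83.4 CPM (median 75.2) in wild type and from 66.4 to 72.0 CPM (median 71.0) in Slc25a1 het. The groups of Ndufa13 did not overlap, which held for 6 of all genes tested in this direction (0.0294%), and its log2 difference was -0.11 ± 0.033 (SE). Ndufa5, another accessory subunit of complex I, ranged from 38.1 to 43.6 CPM (median 40.7) against 34.5 to 38.7 CPM (median 36.8), at -0.14 ± 0.041. In Ndufa5 only Slc25a1 het library 1 reached into the wild-type range.

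Uqcr11 and Uqcrq, small subunits of complex III, and Cox6b1, a subunit of cytochrome c oxidase, also lay lower, with some overlap. Uqcr11 ranged from 40.7 to 45.5 CPM (median 42.9) in wild type and from 33.8 to 43.4 CPM (median 38.1) in Slc25a1 het, at -0.15 ± 0.043 (SE). The 2 Slc25a1 het libraries of Uqcr11 inside the wild-type range were libraries 3 and 4, those with a high Slc25a1 level, while wild-type libraries 6 and 7, with a low Slc25a1 level, lay inside the range of the other wild types at 43.4 and 41.7 CPM. Without the libraries against their label the difference of Uqcr11 was -0.23. Uqcrq ranged from 58.0 to 64.6 CPM against 50.9 to 59.4 CPM (-0.12 ± 0.038), and Cox6b1 from 124 to 139 CPM against 116 to 130 CPM (-0.10 ± 0.031).

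In the mitochondrial ribosome the members did not all lie on the same side. Mrps7 and Mrps26 of the small subunit lay at -0.095 ± 0.032 (SE) and -0.099 ± 0.036 on the log2 scale, with 6 and 5 of 7 Slc25a1 het libraries below every wild-type library. Mrpl43 of the large subunit lay on the other side, from 11.1 to 13.7 CPM (median 12.8) in wild type and from 12.1 to 16.6 CPM (median 14.4) in Slc25a1 het, at 0.20 ± 0.061, with 6 of 7 heterozygous libraries above every wild-type library. Outside the ribosome, Lars2, the mitochondrial leucyl-tRNA synthetase, was also higher, at 0.53 ± 0.19. It ranged from 343 to 814 CPM (median 562) in wild type and from 539 to 1411 CPM (median 665) in Slc25a1 het. Its highest value came from Slc25a1 het library 5, and 3 of 7 heterozygous libraries exceeded every wild-type library. In hippocampus of the same mice Lars2 lay on the other side, at -0.14 ± 0.19. Its list, mitochondrial transcription and translation factors, had 20 of 34 genes below wild type in cortex, with a median of -0.020. At an unadjusted p under 0.05 stood 1 member higher, Lars2, and 1 lower, Sars2 at -0.11 ± 0.051. Of all genes 1.23% stood higher and 1.94% lower.

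Gene length moved with these differences. Taking protein-coding genes with a mean of at least 0 log2 CPM and their exonic length in GENCODE vM21 (GRCm38, not the authors' build), 63.6% of the 1544 genes under 2000 bases lay below wild type, with a median of -0.023, and 4.79% stood lower at an unadjusted p under 0.05. Of the 12138 longer genes 49.3% lay below, with a median of 0.00081, and 1.35% stood lower. Up to 1000 bases 171 of 229 genes (74.7%) lay below, with a median of -0.043.

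Many subunits of the chain are short genes. Of the 150 genes above, 77 were under 2000 bases (69 below wild type, median -0.042, 12 lower at an unadjusted p under 0.05) and 73 were longer (52 below, median -0.024, 6 lower). With offsets that remove trends with length and GC content from each library, complex I kept a median of -0.034 (29 of 36 below) and the small ribosomal subunit one of -0.048 (23 of 29). The large subunit was then at -0.022 (37 of 49), complex III at -0.014 (6 of 9), complex IV at -0.024 (9 of 12) and ATP synthase at -0.022 (9 of 15). The part of length in these values was not tested further. Cytosolic ribosomal protein genes, most of them also short, lay below in 49 of 79 members with a median of -0.013, and in 40 with a median of -0.00013 without the libraries against their Slc25a1 label.

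**Figure D3:**
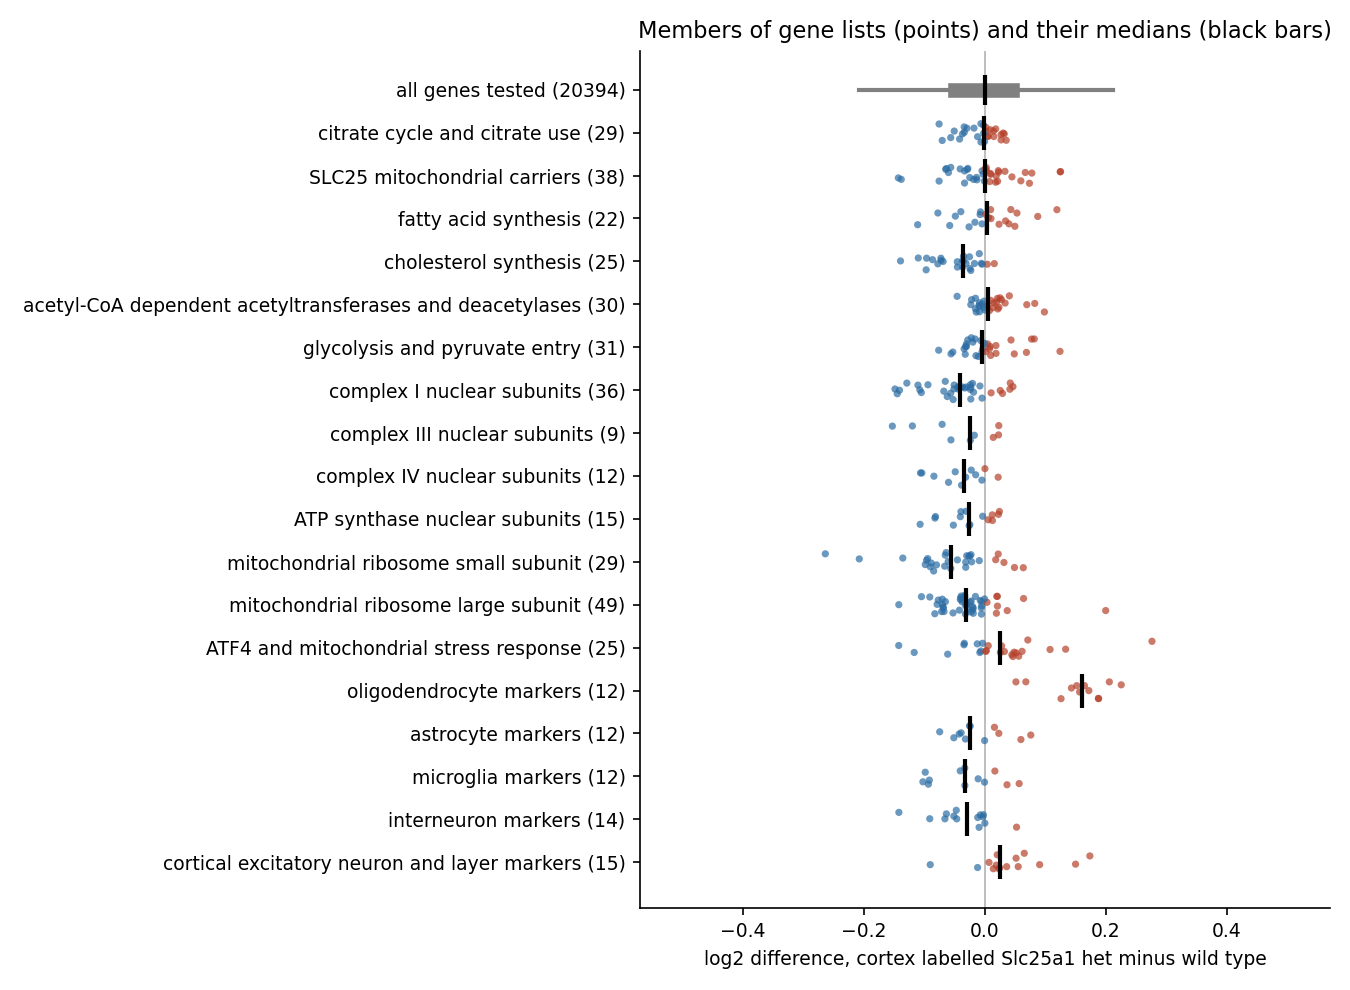
Log2 difference (Slc25a1 het minus wild type, 7 against 9 cortex libraries) of the members of 18 gene lists, points, blue below and red above wild type, with each median as a black bar and the number of measured members in brackets; the grey box and line on top span the middle 50% and 90% of all 20394 genes tested. Citrate, SLC25, fatty acid and acetylation genes centre on 0, respiratory and mitochondrial ribosome genes lie slightly to the left, and all 12 oligodendrocyte markers lie to the right.

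Genes of the response to mitochondrial stress through Atf4, a transcription factor of the integrated stress response, differed by less than the spread between libraries. Of 25 measured, 9 lay below and 16 above, the median was 0.026 and 0 stood at an unadjusted p under 0.05. Without the libraries against their Slc25a1 label the median was 0.081, with 6 of 25 below and again 0 at an unadjusted p under 0.05. Atf4 itself measured 120 ± 25.7 CPM (SD, n = 9) against 123 ± 26.5 CPM (SD, n = 7). Its interval from -0.27 to 0.33 on the log2 scale is wide, and 14 of the 25 genes were bounded within 1.2-fold. Activity-dependent immediate early genes varied widely between animals: 15 of 24 lay below with a median of -0.048, and for 0 of them did the interval lie within 1.2-fold.

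Outside these pathways, the lowest p-values among genes with a known symbol and a mean of at least 0 log2 CPM belonged to a mixed group, and all of them had an adjusted p of at least 0.961. Chrna7, the alpha7 subunit of the nicotinic acetylcholine receptor, ranged from 3.56 to 5.84 CPM (median 4.33) in wild type and from 2.94 to 4.53 CPM (median 3.25) in Slc25a1 het, at -0.44 ± 0.10 (SE) on the log2 scale. In Chrna7, 5 of 7 heterozygous libraries lay below every wild-type library, while libraries 4 and 6 lay inside the wild-type range. The libraries against their Slc25a1 label lay on both sides for Chrna7. With low Slc25a1, wild-type library 6 was the lowest of its group at 3.56 CPM. Wild-type library 7 lay above the median of its group at 4.76 CPM. With high Slc25a1, heterozygous library 3 was the lowest of all 16 at 2.94 CPM and library 4 the highest of its group. Whether Chrna7 follows the Slc25a1 level was not tested. The Chrna7 difference was -0.54 without the libraries against their label.

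By label, the list of cholinergic genes did not lean to either side. Of 26 measured receptors, modulators and enzymes of acetylcholine 13 lay below and 13 above, with a median of 0.0029, and Chrna7 was the 1 member at an unadjusted p under 0.05. Without the libraries against their Slc25a1 label 17 of 26 lay below, with a median of -0.030. Then 3 stood lower at an unadjusted p under 0.05, against 4.31% of all genes in either direction. Chrnb2, the most common beta subunit of brain nicotinic receptors, differed by -0.042 ± 0.044 (SE), and the muscarinic receptor Chrm1 by 0.033 ± 0.042.

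Casp6 (a caspase of axon degeneration and cell death) and Ddx51 (an RNA helicase of ribosome assembly) were, like Ndufa13, lower without overlap between groups. Casp6 ranged from 3.14 to 4.15 CPM (median 3.45) in wild type and from 2.35 to 3.05 CPM (median 2.88) in Slc25a1 het, at -0.34 ± 0.095 (SE). Ddx51 ranged from 19.0 to 20.8 CPM (median 19.8) against 16.5 to 19.0 CPM (median 18.4), at -0.14 ± 0.042, and its nearest libraries were a fraction of a CPM apart. The other 3 genes lower without overlap, Gm7331, Gm42686 and Gm4734, and the 1 higher, Gm36963 (0.0049% of genes), are predicted genes, whose reads may be shared with similar genes. Gm7331 is annotated as a processed pseudogene. Gm42686 and Gm4734 had few reads, with means of 0.361 and 0.337 CPM in wild type and 0.142 and 0.165 CPM in Slc25a1 het. Gm7331 had the smallest p of all genes, at -0.16 ± 0.035, from 43.7 to 52.3 CPM (median 46.4) in wild type to 40.6 to 43.3 CPM (median 41.8) in Slc25a1 het.

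The remaining lower genes of this group were Gng3, a G protein gamma subunit of neurons (-0.16 ± 0.044, SE), Lin7a, a synaptic scaffold protein (-0.22 ± 0.064), Msrb1, a selenoprotein that repairs oxidized methionine (-0.24 ± 0.070), Cope, a coat protein of Golgi vesicles (-0.10 ± 0.030), and Emc6, part of the complex that inserts membrane proteins in the endoplasmic reticulum (-0.17 ± 0.050). In each of them 4 or 5 of 7 Slc25a1 het libraries lay below every wild-type library. Msrb1 shows how they overlapped: it ranged from 13.8 to 17.2 CPM (median 14.8) in wild type and from 10.9 to 15.5 CPM (median 12.0) in Slc25a1 het, and heterozygous libraries 4 and 7 lay at the wild-type level.

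Among higher genes with a symbol other than a predicted gene's and a mean of at least 0 log2 CPM, Npff, which encodes the precursor of neuropeptide FF, had the smallest p, from 0.959 to 1.70 CPM (median 1.26) in wild type to 1.34 to 2.06 CPM (median 1.74) in Slc25a1 het, at 0.46 ± 0.12 (SE). In Npff, 4 of 7 heterozygous libraries lay above every wild-type library. Hspb6, a small heat shock protein, ranged from 3.46 to 4.46 CPM (median 3.94) against 4.02 to 5.09 CPM (median 4.76), at 0.25 ± 0.083, with 5 of 7 above. Nlgn3, a neuroligin that joins the sides of synapses, ranged from 66.0 to 75.6 CPM (median 71.2) against 72.7 to 79.9 CPM (median 75.2), at 0.098 ± 0.034, with 3 of 7 above.

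The others were Mrpl43, Nuf2, a kinetochore protein of dividing cells (0.39 ± 0.13, SE), Prkrip1 (0.14 ± 0.049), Chic1 (0.11 ± 0.037), Zfp609 (0.10 ± 0.034), the ubiquitin ligase Rchy1 (0.097 ± 0.033) and AC162302.2 (0.29 ± 0.092). When each of the 16 libraries was left out in turn, all 20 genes kept their direction. Because the 20 genes were chosen by p in these same libraries, the kept direction carries no weight as a result. The smallest adjusted p of any gene was then 0.240, for Chrna7 without Slc25a1 het library 4.

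**Figure D4:**
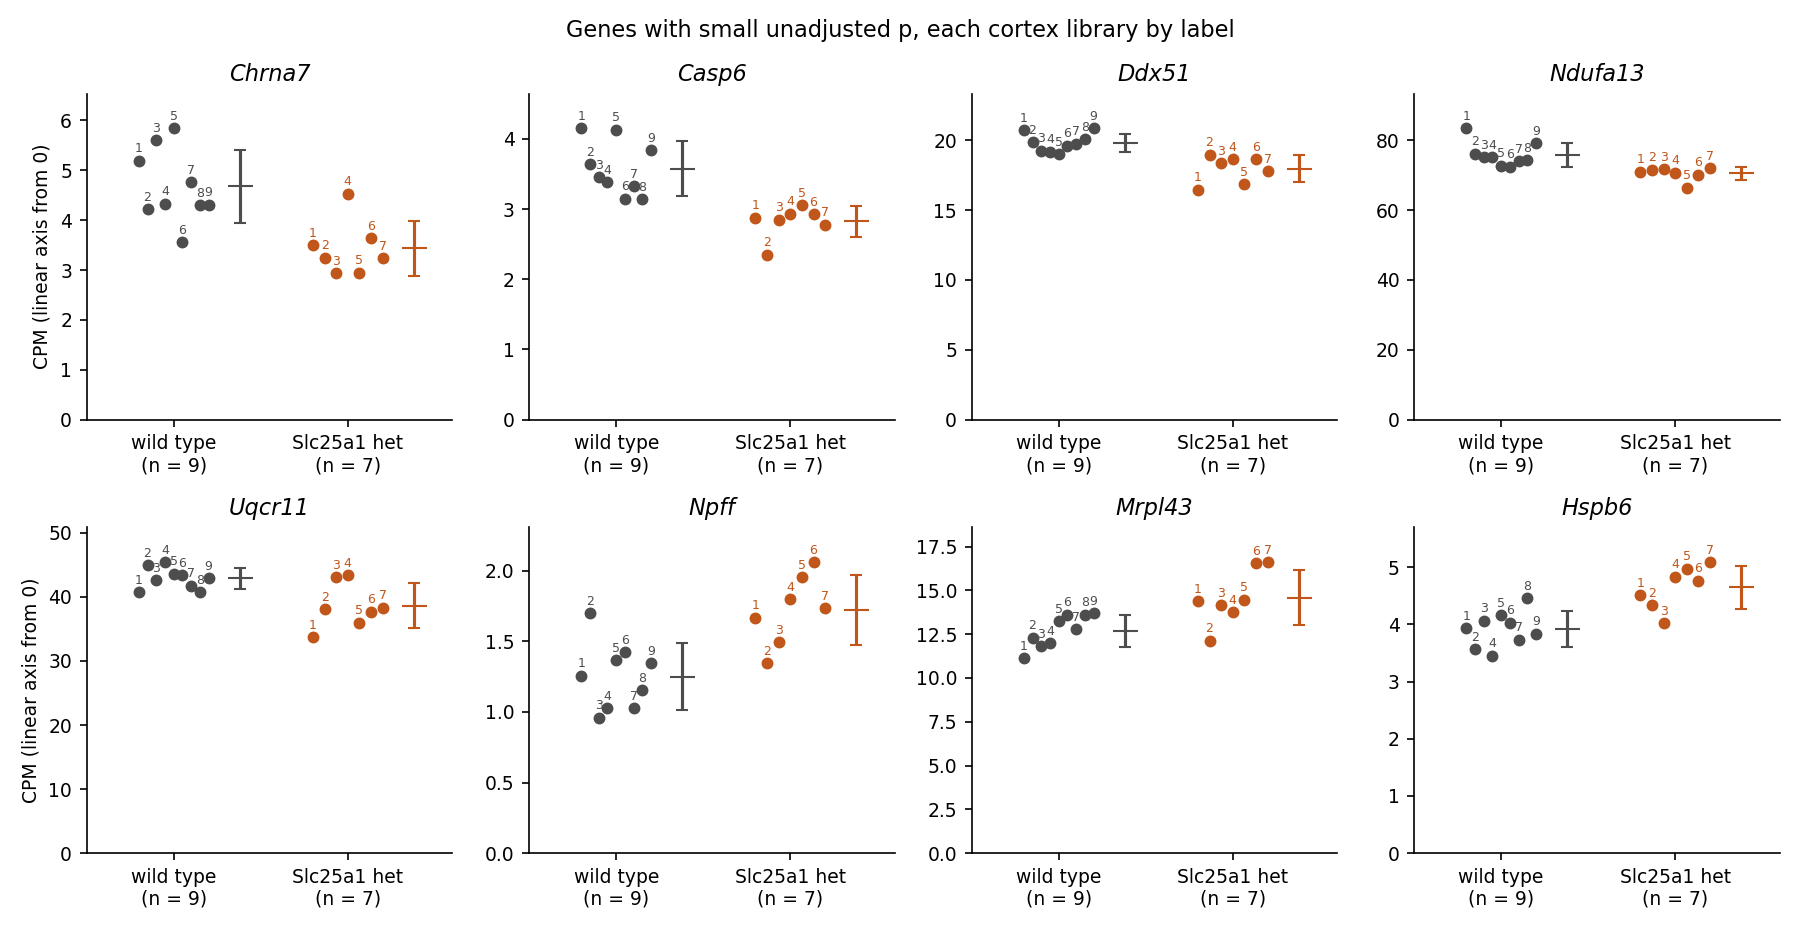
CPM (linear axes from 0) of 8 genes of small unadjusted p in each of the 9 cortex libraries labelled wild type and the 7 labelled Slc25a1 het, numbered by replicate, with mean ± SD beside each group. Casp6, Ddx51 and Ndufa13 do not overlap between groups, while Chrna7, Uqcr11, Npff, Mrpl43 and Hspb6 do, and 0 of the 8 pass the adjusted threshold.

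Markers of cortical neurons overlapped between groups. Slc17a7, the vesicular glutamate transporter of cortical excitatory neurons, ranged from 1354.5 to 1624.2 CPM in wild type and from 1272.7 to 1623.8 CPM in Slc25a1 het. Of 15 excitatory and layer markers 2 lay below (median 0.024), and of 14 interneuron markers 13 lay below (median -0.029), both with 0 at an unadjusted p under 0.05. With the libraries against their label left out these were 7 of 15 below (median 0.017) and 11 of 14 below (median -0.064). The interneuron peptides Cck (-0.14 ± 0.098, SE) and Npy (-0.064 ± 0.052) and the calcium-binding protein Pvalb (-0.091 ± 0.087) overlapped between groups.

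Oligodendrocyte markers, genes of the cells that make myelin, lay above wild type in all 12 members, with a median log2 difference of 0.16 and 0 at an unadjusted p under 0.05. Mbp, a main protein of myelin, ranged from 723 to 1184.2 CPM in wild type and from 797 to 1677 CPM in Slc25a1 het, at 0.13 ± 0.17 (SE), and the groups overlapped. The mean level of the oligodendrocyte markers was 6.91 log2 CPM in Slc25a1 het library 4, against 5.91 to 6.29 in the other 6 heterozygous libraries and 5.81 to 6.42 in wild type. The summed level of the list had a lower median in Slc25a1 het, at 2329 CPM (2025 to 4245), than in wild type, at 2435 CPM (1835 to 2943). Without the libraries against their Slc25a1 label, of which library 4 is 1, the median log2 difference was 0.091 with 12 of 12 above. In tissue RNA, more cells of a type and more RNA per cell cannot be told apart.

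Other cell type lists lay near wild type. Of 12 astrocyte markers 8 lay below (median -0.025), of 12 microglia markers 9 (median -0.033), of 10 oligodendrocyte precursor markers 6 (median -0.050) and of 12 endothelial and pericyte markers 11 (median -0.018), with 0 in these lists at an unadjusted p under 0.05. Without the libraries against their Slc25a1 label the astrocyte list turned to 4 of 12 below (median 0.016) and the endothelial and pericyte list to 4 of 12 below (median 0.025).

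Among markers of tissue next to cortex, the summed level of the hippocampal list ranged from 314 to 372 CPM in wild type and from 295 to 376 CPM in Slc25a1 het, that of the striatal list from 255 to 325 CPM and from 259 to 327 CPM, and that of the cerebellar and thalamic list from 261 to 304 CPM and from 253 to 309 CPM. The fibroblast and meningeal list varied more, from 167 to 721 CPM and from 115 to 505 CPM. The striatal, cerebellar and thalamic, and choroid plexus lists each had 1 member higher at an unadjusted p under 0.05, against 1.23% of all genes. These were Adora2a of 11 measured, Cbln3 of 13 and Clic6 of 6. Cbln3 and Clic6 had few reads, with wild-type means of 0.664 and 0.252 CPM. In the fit of the 16 compared libraries alone the choroid plexus list had 0 of 5 measured. The hippocampal and fibroblast lists had 0 in the reported fit. The choroid plexus gene Ttr, which carries thyroid hormone, ranged from 0.269 to 2.64 CPM in wild type and from 0.0981 to 7.48 CPM in Slc25a1 het, and the cerebellar granule cell gene Cbln3 from 0.411 to 1.18 CPM and from 0.463 to 2.27 CPM. The striatal gene Adora2a ranged from 1.01 to 1.82 CPM and from 1.40 to 2.23 CPM. Their part in the differences above was not tested.

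Hippocampus of the same mice gives a second look at the genes named in cortex. There 7 libraries labelled Slc25a1 het against 8 labelled wild type also gave 0 called genes of 20162 (0% called, 7.77% at an unadjusted p under 0.05, smallest adjusted p 0.359). Of the 20 genes with the smallest p in cortex, 2 stood at an unadjusted p under 0.05 in hippocampus. This is near the share of all genes there, 7.77%. They were Emc6 at -0.16 ± 0.044 (SE) and Gng3 at -0.23 ± 0.11, both lower as in cortex. Chrna7, more abundant in hippocampus at 11.4 ± 1.75 CPM in wild type (SD, n = 8), measured 12.1 ± 2.46 CPM in Slc25a1 het (SD, n = 7), a log2 difference of 0.083 ± 0.13. Casp6 differed there by 0.035 ± 0.095, Ddx51 by 0.099 ± 0.060, Lin7a by 0.15 ± 0.093, Npff by -0.082 ± 0.14 and Mrpl43 by -0.11 ± 0.052.

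The respiratory subunits named above, picked by their small p in cortex, lay lower in both tissues. The respiratory lists as a whole were not counted in hippocampus. In hippocampus Ndufa13 differed by -0.12 ± 0.052 (SE), Uqcrq by -0.10 ± 0.049, Cox6b1 by -0.089 ± 0.048, Uqcr11 by -0.071 ± 0.057 and Ndufa5 by -0.099 ± 0.064. Of these, only Ndufa13 and Uqcrq stood at an unadjusted p under 0.05 there, against 7.77% of all genes. A test of the difference between tissues, with the mouse as a block, called 0 of 21354 genes (0% called, 6.00% at an unadjusted p under 0.05). Among the 20 genes 10 stood at an unadjusted p under 0.05 for this difference, and their smallest adjusted p was 0.816. Because the 20 genes were chosen by their cortex values, those values are a description here and the count carries no weight as a result.

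**Figure D5:**
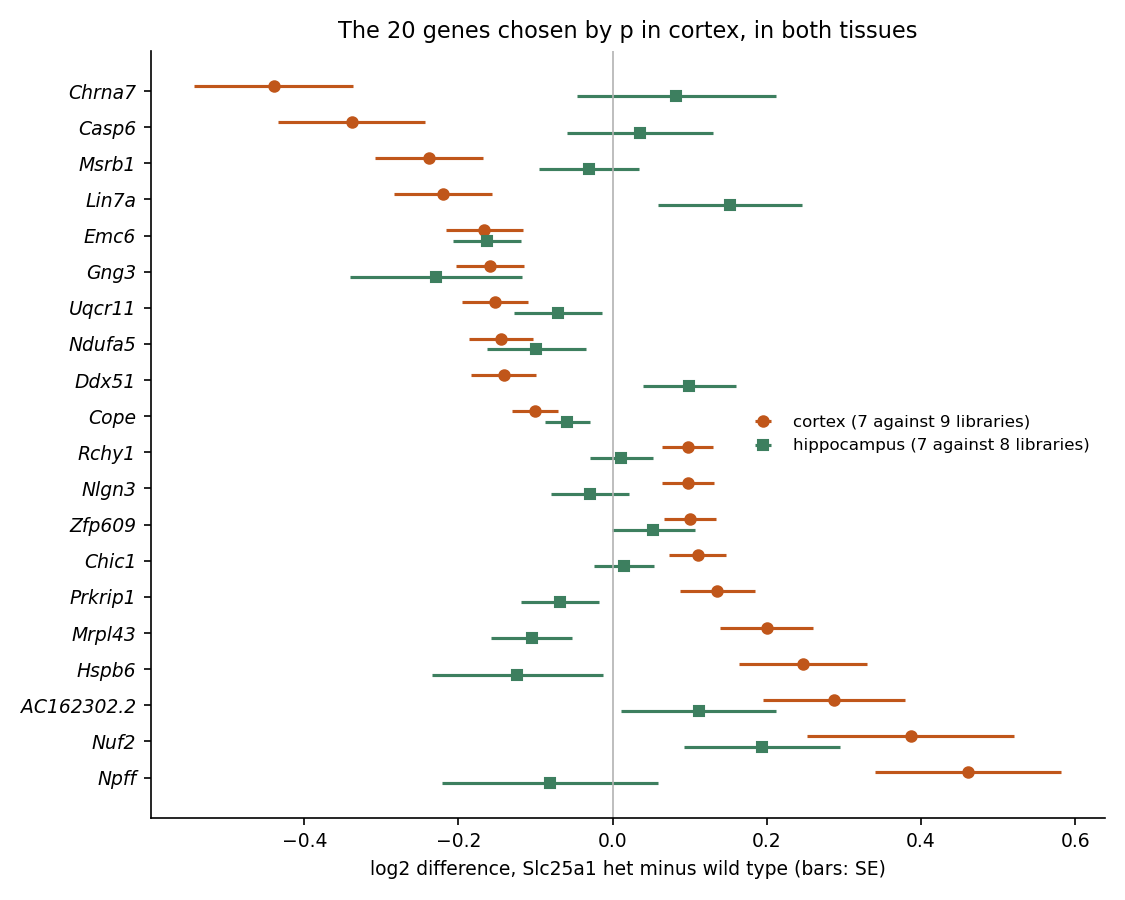
Log2 difference (Slc25a1 het minus wild type; points with SE bars) of the 20 genes chosen by p in cortex, in cortex (circles, 7 against 9 libraries) and in hippocampus of the same mice (squares, 7 against 8 libraries). Emc6 and Gng3 lie on the same side in both tissues with an unadjusted p under 0.05 in hippocampus, as do 7.77% of all genes there in either direction. Chrna7, Casp6, Ddx51, Npff and Mrpl43 lie near or beyond 0 in hippocampus.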

How the data were processed

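The members and the gene lists were chosen with earlier results of these data known. Poly(A) RNA was sequenced on a NovaSeq X Plus from stranded libraries, per the labels' protocols; the submitters' processing notes name FastQC, HISAT2, featureCounts, DESeq2 and the build mm39 (GRCm39), without versions. Raw counts per gene (57180 gene rows) were deposited by the authors; the second deposited table holds signal values, which equal each library's raw counts over a single constant (largest relative range 9.85e-10).

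Groups came from the labels. Genes were tested with edgeR 4.0.16 (R 4.3.3) on the raw counts: TMM normalization, filterByExpr, a robust quasi-likelihood fit of all 30 cortex libraries and Benjamini-Hochberg adjustment over all 20394 genes at 0.05. The 95% intervals are those of the fitted log2 difference. Fitting all 4 genotypes together shares 1 estimate of the spread. The tissue difference used the 29 mice that gave both tissues, with the mouse as a block. Log2 CPM used a prior count of 2. Exonic lengths were taken from the GENCODE annotation vM21 (GRCm38), where 97.3% of genes tested were found; positions are not printed, because this is not the authors' build. The pipeline was tested on simulated data.

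Named genes were Slc25a1 and Mrpl40, the 10 smallest p in each direction with a mean of at least 0 log2 CPM and a symbol other than a predicted gene's, and the 2 members of smallest p in each of 37 lists. Others (among them Acly, Cs, Acss2, Acaca, Fasn, Hmgcs1, Slc25a10, Slc25a11, Slc13a3, Slc13a5, Ep300, Atf4, Mbp, Pvalb, Chrnb2, Chrm1 and the predicted genes) were picked for their role, or with their values known. The alternatives comprised a replicate block by label number, 2 surrogate variables (sva 3.50.0), offsets for length and GC content, the unfiltered table, DESeq2 size factors, DESeq2's Wald test (version 1.42.0), a fit of the 16 compared libraries alone, limma 3.58.1 on the deposited signal values (log2 with a pseudocount of 1), and each library left out. Leaving out the 6 libraries against their Slc25a1 label was added after seeing the data. Plots used matplotlib 3.10.9 under Python 3.11.15.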

Additional observations from a re-analysis of the deposited data

Results flagged for a closer look

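Single libraries that stood far from the rest of their group were looked for in 184 groups (92 named genes in 2 labelled groups) with Dixon's test. It marked 9 values, and chance marks about 1 in 20 groups. Of the genes named for a small p, Casp6 was lowest in Slc25a1 het library 2 (2.35 CPM, nearest 2.78), Ndufa13 in Slc25a1 het library 5 (66.4 CPM, nearest 70.1), and Msrb1 was highest in wild-type library 3 (17.2 CPM, nearest 15.5). Mrps26 was highest in Slc25a1 het library 2 (41.1 CPM, nearest 38.6), and the ribosomal protein gene Rps2 in wild-type library 2 (175 CPM, nearest 155). Among markers of other cells, Cldn11 of oligodendrocytes was highest in Slc25a1 het library 4 (83.8 CPM, nearest 57.1) and the collagen gene Col1a1 in wild-type library 8 (12.3 CPM, nearest 6.06). Cbln3 was highest in wild-type library 5 (1.18 CPM, nearest 0.779), and Cd52 of blood cells lowest in Slc25a1 het library 3 (0.327 CPM, nearest 0.709).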

How the results depend on the processing

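The count of genes that differ in cortex was 0 under every setting run but 1 (smallest adjusted p 0.180, by DESeq2), and 0 with each library left out in turn (517 to 834 genes at an unadjusted p under 0.05). It was 1 without the 6 libraries against their Slc25a1 label, the call being Slc25a1, and the cause was not tested beyond the way these libraries were picked. The count at an unadjusted p under 0.05 was 646 in the reported fit, 877 without those 6 libraries, and 1680 of 41503 genes with no filter on low counts. The tissue difference called 0 genes under every alternative run.

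With the replicate block 0 genes were called and 873 stood at an unadjusted p under 0.05. The replicate numbers name different mice and did not pair the samples: over 7 pairs and 5000 genes the correlation of deviations ranged from -0.146 to 0.525 with a median of -0.018. The block together with the length and GC offset was therefore not run. Of the named genes 3 turned their sign, all with differences near 0: with each library left out in turn Mrpl40 ranged from -0.056 to 0.011, above 0 only without Slc25a1 het replicate 2, and Rspo1 and Slc17a7 were at 0.017 and -0.0074 without the 6 libraries. The other 1191 values of named genes and 333 list medians kept their direction and side of the threshold, or moved by less than the spread between libraries. For named genes picked by p in these same libraries, a kept direction carries no weight as a result. Depth limits genes of low level: for 71.1% of the 16620 genes with a mean of at least 0 log2 CPM the interval lay within 1.2-fold.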
